A study of Mus musculus with 4 samples.

Results

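The cells described here are fibroblasts of the mouse mid-colon that carry RNA of Cilp, Fmo2 or Ackr4, and 722 of 44356 cells that passed filtering belonged to them. They were chosen by a rule on the raw counts of unique molecular identifiers (UMIs, the tags that let each captured RNA molecule be counted once) of each cell. A cell had to hold 500 UMIs and 250 genes or more, with mitochondrial UMIs making up 25% or less. It also needed a sum of at least 15 UMIs of Dcn, Col1a2 and Col3a1, no UMI of Ptprc or Pecam1, under 2 UMIs of Epcam and at least 2 UMIs of Cilp, Fmo2 and Ackr4 together. Cells with 2 or more UMIs of Pi16, Mfap5 and Cd248, of Adamdec1, or of Kcnn3 and Fibin, and cells with 3 or more UMIs of Has1, Tnfaip6 and Ptx3, were left out. The levels of all these genes therefore chose the members and are no finding about them. The study sequenced single-cell suspensions of the mid-colon of 7-week-old mice without specified pathogens by droplet capture of polyadenylated RNA, read at the 3-prime end. Controls were kept on clean water, and the other group received 3% dextran sulfate sodium (DSS), a polysaccharide that injures the colonic lining, for 2 days. There were 2 libraries per group, named here control 1, control 2, DSS 1 and DSS 2, and no genotype, strain or sex is given in the labels. The labels do not say that libraries of a group came from separate animals, so a p-value here reflects how far these libraries scatter, and that scatter may be technical. Where 4 values stand in a row, their order is control 1, control 2, DSS 1, DSS 2.

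Fibroblasts of the gut wall build the collagen scaffold around the crypts and supply signals to the stem cells at the crypt base. Gremlin 1, the product of Grem1, binds bone morphogenetic proteins (BMPs) and keeps them from their receptors, while R-spondins such as the product of Rspo3 raise the response of stem cells to Wnt ligands. Ackr4 encodes a scavenger receptor that takes up the homing chemokines CCL19, CCL21 and CCL25, Cilp a cartilage intermediate layer protein of the matrix, Fmo2 a flavin monooxygenase and Inmt a methyltransferase that acts on indolethylamines.

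The members numbered 134, 71, 335 and 182, and no barcode was shared between members of different libraries. Of the filtered cells they made up 1.44% (exact binomial 95% interval 1.21 to 1.70%), 0.661% (0.516 to 0.833%), 2.78% (2.50 to 3.09%) and 1.49% (1.28 to 1.72%). These intervals cover counting error only. The mean share was 1.05% ± 0.549 (SD, n = 2) in control and 2.13% ± 0.917 in DSS libraries, and the exact two-sided permutation test gave the smallest p that 2 libraries against 2 can reach, which lies above 0.05. Both DSS libraries lay above both controls by this measure, with control 1 and DSS 2 almost level. With a marker minimum of 3 UMIs or a mitochondrial limit of 10% the groups overlapped (exact permutation p = 0.667 for each). As a share of the 10024 cells that passed the fibroblast limits alone, the members made up 7.92%, 4.45%, 11.7% and 4.71%, so that the groups overlapped (6.18% ± 2.45 against 8.20% ± 4.93, exact permutation p = 0.667). Without DSS 1 this difference changed sign, from 2.02 to -1.47 percentage points.

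The limit on Has1, Tnfaip6 and Ptx3, genes of hyaluronan synthesis and of the acute inflammatory response, took away very different shares of cells in the 4 libraries. Of the cells that met every other part of the rule it removed 1 of 135 (0.741%), 106 of 177 (59.9%), 97 of 432 (22.5%) and 634 of 816 (77.7%). The shares were higher in control 2 and DSS 2 than in control 1 and DSS 1. Without that limit the shares of fibroblasts were 7.97%, 11.1%, 15.1% and 21.1%, both DSS libraries lay above both controls, and the mean difference was 8.56 percentage points, again at the smallest p of the exact permutation test. The limits also acted on depth. Of 7652 gated fibroblasts with at least 2 UMIs of Cilp, Fmo2 and Ackr4, only 722 (9.44%) met all limits, and these had a median of 2211 UMIs against 4632 UMIs in the 6930 that did not. A total of 4337 of those left out exceeded the limit on Pi16, Mfap5 and Cd248, 3632 that on Has1, Tnfaip6 and Ptx3, 1735 that on Kcnn3 and Fibin and 974 that on Adamdec1, and a cell could exceed several. Members were thus the shallower part of the fibroblasts with these markers, and the fibroblasts outside the rule still held much Cilp (720, 955, 572 and 523 CPM). CPM here is a gene's share of all UMIs summed over the cells of a gate in a library, on the usual CPM scale.

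**Figure D1:**
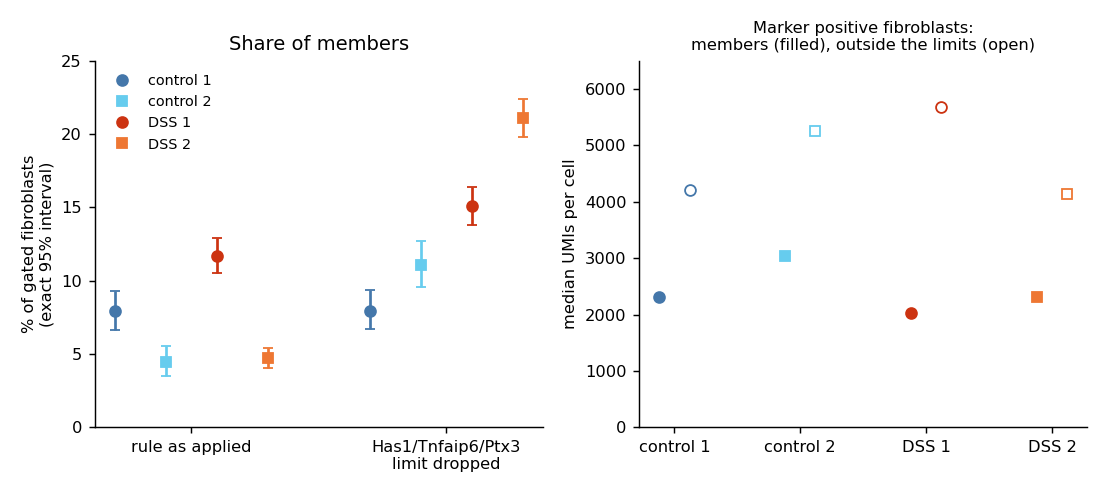
Left, members as a percentage of gated fibroblasts in each library, with exact binomial 95% intervals, under the rule as applied and without the limit on Has1, Tnfaip6 and Ptx3. Right, median UMIs per cell of marker positive fibroblasts that are members (filled) and that are not (open). The groups overlap under the rule as applied, and members are shallower than the cells left out in all 4 libraries.

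The fibroblast label held for most members but not for all. Lum, a keratan sulfate proteoglycan that the rule did not use, stood at 2428, 1843, 1817 and 3001 CPM, against 15.2 to 47.0 CPM in epithelial cells. Pdgfra, the receptor for platelet-derived growth factor that is typical of gut fibroblasts, stood at 445, 498, 536 and 654 CPM. A group of 25 members went against the label, since at least 2% of their UMIs came from 7 smooth muscle genes. These muscle-rich cells numbered 8, 1, 15 and 1 by library and gave 22.4%, 2.10%, 19.3% and 1.80% of the members' UMIs. Their median depth was 11920 UMIs against 2124 in the other members. They held 15350 CPM of Acta2, 11430 CPM of Des, which encodes the intermediate filament desmin, and 300 CPM of Chrm2, a muscarinic acetylcholine receptor of smooth muscle, against 157, 40.8 and 8.04 CPM in the other 697 members. Their Dcn was 443 CPM against 18990 CPM, their Pdgfra 10.5 against 628 CPM, and their Cilp 10.5 against 991 CPM. They entered through Ackr4 (262 CPM) and Fmo2 (276 CPM), and they were high in Grem1 (848 CPM against 514 CPM). Inmt had 0 of 286732 UMIs in them, which allows up to 10.5 CPM, against 573 CPM in the other members. The smooth muscle genes chose these 25 cells, so their levels describe the choice.

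**Figure D2:**
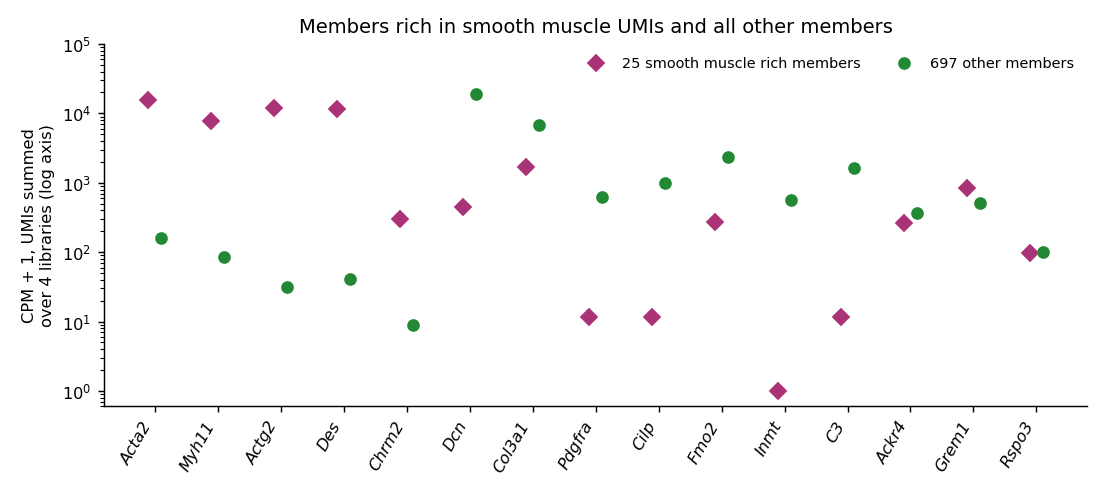
Levels of smooth muscle genes, fibroblast genes and the genes that mark the members, in CPM + 1 on a log axis, over UMIs summed across 4 libraries, in 25 muscle-rich members (diamonds) and the other 697 members (circles). Inmt and Cilp are near or at 0 in the muscle-rich cells, while Grem1 stands at 848 CPM in them and 514 CPM in the other members.

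A further 2 members had at least 2% haemoglobin UMIs and 2 had at least 10% immunoglobulin UMIs. With the muscle-rich cells these made 29 mixed members, of which 9, 1, 18 and 1 lay in the 4 libraries. Predicted doublets were 0, 1, 3 and 2 of the members. Over the whole list of 8 smooth muscle markers the members summed to 17950 and 17940 CPM in control 1 and DSS 1 but to 910 and 858 CPM in control 2 and DSS 2. The 5 plasma cell markers summed to 611 and 5322 CPM in control and 16080 and 2252 CPM in DSS libraries, and the 12 epithelial markers to 1191, 2160, 757 and 1868 CPM. Lymphocyte markers summed to at most 33.0 CPM, and the rule itself held Ptprc of that list and Pecam1 of the endothelial list at 0. Endothelial markers summed to 54.4, 18.1, 55.7 and 55.25 CPM, against 19.8, 11.2, 27.1 and 16.6 CPM in the other gated fibroblasts. Flt1, an endothelial marker of that list, gave 49.2, 13.6, 41.3 and 39.8 CPM of the members' sums. The 6 mural markers, of cells around vessels, summed to 1561, 738, 571 and 435 CPM, against 995, 409, 1091 and 376 CPM in the other gated fibroblasts. The 6 mesothelial markers summed to 160.5, 303.5, 88.8 and 194.5 CPM, and the groups overlapped by this sum. Of these 6 genes 4 lay below both controls in both DSS libraries, against 13.4% of all genes tested. What these other cells' RNAs add to each result was not tested gene by gene. Only some results are given below both with and without the 29 mixed members, and a result given once is not shown to be unchanged without them.

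Among signals of the crypt niche, Grem1 (chr2:113746164-113758646, minus strand, GRCm38) stood at 481, 720, 552 and 572 CPM in the members. It stood at 135, 253, 104 and 254 CPM in cells of the Adamdec1 gate, which are fibroblasts of the lamina propria, and at 10.8, 11, 18.0 and 55.7 CPM in cells of the Kcnn3 and Fibin gate. Each library thus had more Grem1 in the members than in either of those gates, while the Pi16, Mfap5 and Cd248 gate, with 23 to 50 cells per library, ran from 59.1 to 919 CPM and overlapped them. After each cell was thinned to 2000 UMIs, a Grem1 UMI was found in 30.6%, 42.0%, 40.2% and 37.7% of the members, against 0.501 to 1.26% of epithelial cells at the same depth, a measure of free RNA. Without thinning the shares were 32.1%, 36.6%, 37.6% and 35.2% of members, with medians of 2023 to 3048 UMIs, and 1.58 to 4.71% of epithelial cells, with medians of 11040 to 21620 UMIs. Rspo3 stood at 85.4, 131, 78.4 and 135 CPM in the members, against 15.1 to 32.6 CPM in the Adamdec1 gate, 4.64 to 27.8 CPM in the Kcnn3 and Fibin gate and 14.3 to 315 CPM in the Pi16 gate. Rspo1, a relative of Rspo3, did not pass 15.5 CPM in any library, and Wnt2b, a canonical Wnt ligand of stromal cells, reached 31.7 CPM in control 2 and 6.63 to 11.4 CPM elsewhere.

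Bmp2, Bmp4, Bmp5 and Bmp6, which encode BMP ligands, stood lower in the members than in the Adamdec1 gate in each library. Bmp2 stood at 25.9, 86.1, 51.6 and 102 CPM in the members and at 224, 198, 734 and 1076 CPM in that gate, and Bmp6 at 36.2 to 55.7 CPM against 70.2 to 90.0 CPM. Bmp5 stood at 7.77, 18.1, 43.4 and 26.5 CPM in the members and at 464 to 521 CPM in the Adamdec1 gate. Bmp4 stood at 295, 421, 390 and 519 CPM in the members and at 855 to 1074 CPM in that gate. Gdf10, a secreted relative of the BMPs, gave the opposite order, with 246, 471, 153 and 217 CPM in the members and at most 4.32 CPM in the Adamdec1 gate, and was higher still in the Kcnn3 and Fibin gate (436 to 878 CPM). Sfrp1, a secreted Wnt inhibitor, ran from 893 to 1297 CPM in the members and from 1749 to 2569 CPM in the Kcnn3 and Fibin gate. Of the ligands that Ackr4 takes up, Ccl19 stood at 0, 0, 2.06 and 8.84 CPM in the members and Ccl25 at 10.4, 18.1, 2.06 and 8.84 CPM. Ccl21a stood at 0, 4.53, 96.0 and 8.84 CPM, with 93 UMIs in DSS 1 and at most 4 in the other libraries. A count of 0 UMIs allows up to 7.77 CPM in control 1 and 13.6 CPM in control 2.

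**Figure D3:**
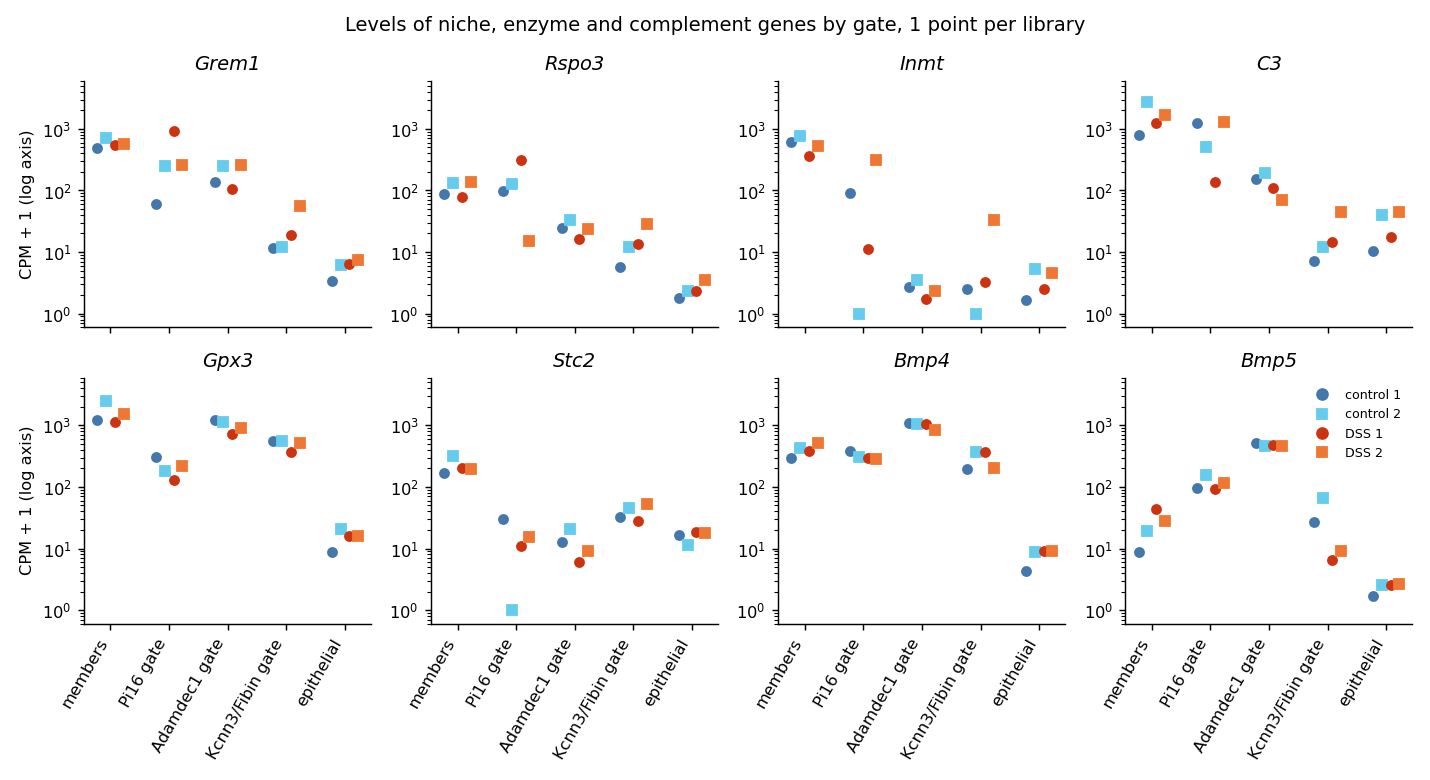
Levels of 8 genes in CPM + 1 (log axis) in the members, 3 other fibroblast gates and epithelial cells, 1 point per library. Inmt and Stc2 are highest in the members in each library, Grem1 and Rspo3 overlap the Pi16 gate, and Bmp4 and Bmp5 are highest in the Adamdec1 gate.

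Several enzymes of small-molecule metabolism were higher in the members than in the other gated fibroblasts. Inmt (chr6:55170626-55175043, minus strand) stood at 608, 765, 363 and 535 CPM, against 111, 252, 101 and 197 CPM in all other gated fibroblasts and at most 2.51 CPM in the Adamdec1 gate. It had the largest lowest ratio over the 4 libraries among genes outside the rule with at least 20 CPM, a log2 ratio of 1.43 to 2.44. Gpx3, a secreted glutathione peroxidase, stood at 1204, 2473, 1156 and 1505 CPM against 696, 995, 612 and 676 CPM, and Fmo1, a relative of Fmo2, at 101, 226, 74.3 and 161 CPM against 59.1, 115, 39.1 and 75.5 CPM. Stc2, which encodes the secreted glycoprotein stanniocalcin 2, stood at 166, 312, 204 and 194 CPM against 79.2, 105, 73.2 and 91.5 CPM. Galnt15, an enzyme of the family that starts O-linked glycosylation, stood at 228, 195, 226 and 119 CPM against 62.0, 97.4, 76.3 and 49.5 CPM. These ratios describe gates that were cut from the same cells and carry no test. Most of the other gated fibroblasts (6930 cells) also held at least 2 UMIs of Cilp, Fmo2 and Ackr4 and were left out by the other limits. Without mixed cells the ranges of the log2 ratios were 1.43 to 2.76 for Inmt, 1.09 to 1.27 for Gpx3, 1.08 to 1.71 for Stc2 and 0.95 to 2.12 for Galnt15.

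Other genes among the 20 of highest ratio were rarer. Flt1, a receptor for vascular endothelial growth factor, stood at 49.2, 13.6, 41.3 and 39.8 CPM from 51 members. Gpnmb, a transmembrane glycoprotein, stood at 31.1 to 45.3 CPM in 56 members, and Thrb, a thyroid hormone receptor, at 31.1 to 72.5 CPM in 71 members. Clu is in that group through few cells, since 1 member alone held 80 of its UMIs and 30 members had any. At the low end, Nrg1, an epidermal growth factor family ligand, stood at 0, 0, 12.4 and 6.63 CPM in the members against 9.88, 17.6, 117 and 130 CPM in the other fibroblasts. Ereg, another ligand of that family, stood at 5.18, 4.53, 21.7 and 50.8 CPM against 15.9, 70.1, 87.3 and 247 CPM, and Ednrb, an endothelin receptor, at 0 to 4.53 CPM against 16.6 to 82.1 CPM.

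C3, the central complement protein, stood at 810, 2690, 1248 and 1695 CPM in the members, against 68.5 to 188 CPM in the Adamdec1 gate and 6.19 to 43.8 CPM in the Kcnn3 and Fibin gate. Control 1 and control 2 lay below and above both DSS libraries. Cells that the Has1, Tnfaip6 and Ptx3 limit removed had 2718, 2330 and 2565 CPM of C3 in control 2, DSS 1 and DSS 2, each above the members of the same library. Cd34, a surface sialomucin of stromal cells, stood at 507, 725, 516 and 553 CPM in the members and at 56.4 to 291 CPM in the Adamdec1 gate. Levels of C3 and Cd34 in the Pi16 gate are not quoted in the text. The levels quoted here therefore do not set the members apart from that gate, and neither gene is shown to be a trait of the members.

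The members were not uniform in the markers that chose them. A total of 236 had UMIs of Cilp and Fmo2, 197 of all 3 genes, 145 of Fmo2 alone, 70 of Fmo2 and Ackr4, 37 of Cilp alone, 23 of Cilp and Ackr4 and 14 of Ackr4 alone. The 197 with all 3 genes had a median of 3046 UMIs and the 236 with Cilp and Fmo2 a median of 1840 UMIs, and the groups differed in depth. Their Grem1 was 639 and 475 CPM and their Inmt 650 and 502 CPM. The 14 cells with Ackr4 alone had a median of 10040 UMIs, 755 CPM of Grem1 and no UMI of Inmt, and of these 8 lay in control 1, 5 in DSS 1 and 1 in DSS 2. At the marker minimum of 2 UMIs, 96 members had 312, 0, 442 and 1063 CPM of Grem1, and the 124 cells that missed the rule by 1 marker UMI had 667, 350, 353 and 694 CPM. Inmt in the same order was 504, 0, 221 and 192 CPM just inside and 252, 234, 29.0 and 264 CPM just outside. It was thus higher just inside in control 1 and DSS 1 and lower in control 2 and DSS 2. With 57 Inmt UMIs inside and 48 outside, these cells cannot show whether levels break at the threshold.

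Rspo3 was found more often in members with Grem1 than in those without it in each library. Among members without the 29 mixed cells, thinned to 2000 UMIs, Rspo3 was found in 6 of 17, 8 of 19, 16 of 58 and 15 of 38 cells with Grem1 (35.3%, 42.1%, 27.6% and 39.5%). Without Grem1 it was found in 4.35%, 16.7%, 6.45% and 10.5% of the cells. Inmt did not follow Grem1 in the same way, with 64.7%, 47.4%, 43.1% and 21.1% of cells with Grem1 against 47.8%, 36.7%, 30.1% and 40.3% of cells without it, so that DSS 2 went the other way. These are shares of cells within a library and carry no test.

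For the comparison of DSS with control, UMIs were summed over the members of a library, with sums of 386341, 220791, 968956 and 452470. Several genes of the interferon-gamma response stood higher in both DSS libraries, and Spink4 and Agr2, known from goblet cells, stood lower, but no gene passed the test. The quasi-likelihood F test of edgeR called 0 of 6143 genes at an adjusted p of 0.05 (0% of the genes tested), with 66 genes higher and 37 lower at an unadjusted p under 0.05 and a smallest adjusted p of 0.676. DESeq2 called 2 genes, both lower in DSS. Both DSS libraries lay above both controls for 644 genes (10.5% of those tested) and below both for 822 (13.4%), and the gene lists are read against these shares. In such sums, fewer cells with a transcript and less RNA per cell cannot be told apart.

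Of 25 interferon-gamma and antigen presentation genes that were tested, 10 lay above both controls in both DSS libraries and 0 below, against 10.5% and 13.4% of all genes. Their median log2 fold change was 0.73, against -0.00062 over all genes tested, 9 had an unadjusted p under 0.05 and 0 passed edgeR's adjusted threshold. Iigp1, an interferon-inducible GTPase, stood at 10.4 and 36.2 CPM in control and 87.7 and 159 CPM in DSS libraries (log2 2.56, SE 0.56, edgeR adjusted p = 0.999). Its UMIs came from 62 members, and 1 cell of DSS 1 held 39 of the 85 there, while without mixed members it stood at 13.6, 37.0, 61.3 and 135 CPM. Irgm2, a GTPase of the same family, stood at 15.5, 18.1, 45.4 and 95.03 CPM (log2 2.05, SE 0.53, edgeR adjusted p = 0.999). Irgm1 stood at 15.5, 9.06, 44.4 and 39.8 CPM. Tap1, a subunit of the peptide transporter for antigen presentation, stood at 10.4, 9.06, 28.9 and 53.0 CPM, and Psmb8, a subunit of the immunoproteasome, at 12.9, 22.6, 33.0 and 64.1 CPM. The libraries of the groups did not overlap for any of these 5.

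Igtp, at 12.9, 13.6, 58.8 and 50.8 CPM, rests on few cells, since 1 member of DSS 1 held 45 of the 57 UMIs there. Without mixed members DSS 1 stood at 13.3 CPM and no longer above the controls. Igtp and Irgm2 also overlap on the same strand in the annotation, so reads could be split between them. Without the 29 mixed members, 6 of the 25 genes lay above both controls (all genes, 12.3%), and without the Has1, Tnfaip6 and Ptx3 limit 11 did (all genes, 7.75%). Iigp1, Irgm1, Irgm2, Tap1, Psmb8 and H2-Ab1 did so in all 3 definitions. For H2-Ab1, which encodes a chain of class II, the margin was narrow, with 7.77 and 27.2 CPM in control and 101 and 28.7 CPM in DSS libraries. Myeloid markers in the members summed to 28.5 and 63.4 CPM in control and 150 and 53.0 CPM in DSS libraries, with DSS 1 highest as for H2-Ab1, and their part in that value was not tested.

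**Figure D4:**
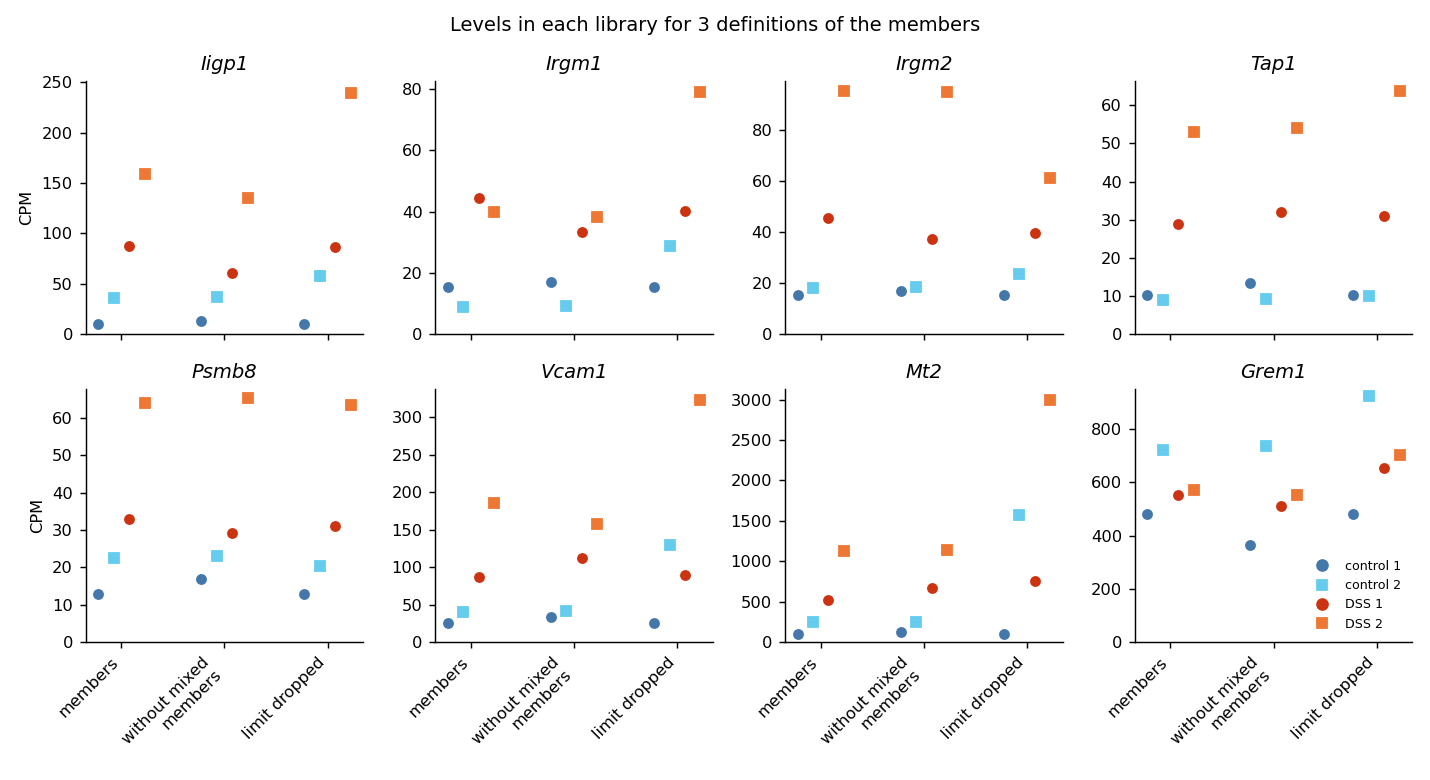
CPM of 8 genes in each library for the members, for members without the 29 mixed cells and for the cells that meet the rule without the Has1, Tnfaip6 and Ptx3 limit. Both DSS libraries are above both controls in all 3 definitions for Iigp1, Irgm1, Irgm2, Tap1 and Psmb8, but not for Vcam1 and Mt2 once the limit is dropped, and Grem1 overlaps in all 3.

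Promoter sequences, from 250 bases before to 50 bases after the transcript start, are shown for the 4 genes of those 6 that the RefSeq table of GRCm38.p6 holds, since the groups did not overlap for them in any of the 3 definitions. Capitals mark matches, on either strand, to GAAA, any 2 bases and GAAA again (an interferon-stimulated response element) or TTCNNNGAA (a gamma-activated site). The windows are chr11:48871371-48871670 (minus strand) for Irgm1, chr11:58214727-58215026 (plus) for Irgm2, chr17:34197945-34198244 (plus) for Psmb8 and chr17:34187306-34187605 (plus) for Tap1, each written 5′ to 3′ on the gene's strand.
Irgm1: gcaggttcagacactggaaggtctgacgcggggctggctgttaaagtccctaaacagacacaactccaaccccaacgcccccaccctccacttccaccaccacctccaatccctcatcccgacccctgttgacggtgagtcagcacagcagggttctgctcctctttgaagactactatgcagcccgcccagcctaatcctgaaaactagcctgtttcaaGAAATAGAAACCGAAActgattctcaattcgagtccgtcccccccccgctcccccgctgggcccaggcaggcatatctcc
Irgm2: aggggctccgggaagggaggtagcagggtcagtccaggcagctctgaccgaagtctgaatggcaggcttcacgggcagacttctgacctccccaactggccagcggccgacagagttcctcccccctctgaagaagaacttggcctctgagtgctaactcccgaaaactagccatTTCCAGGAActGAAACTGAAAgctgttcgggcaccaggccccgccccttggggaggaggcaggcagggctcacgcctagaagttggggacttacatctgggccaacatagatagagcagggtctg
Psmb8: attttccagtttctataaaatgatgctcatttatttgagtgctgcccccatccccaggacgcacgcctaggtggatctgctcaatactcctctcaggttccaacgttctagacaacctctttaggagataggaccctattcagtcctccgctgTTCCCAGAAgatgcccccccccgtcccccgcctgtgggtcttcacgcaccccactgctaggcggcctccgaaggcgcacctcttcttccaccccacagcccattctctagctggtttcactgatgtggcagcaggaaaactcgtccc
Tap1: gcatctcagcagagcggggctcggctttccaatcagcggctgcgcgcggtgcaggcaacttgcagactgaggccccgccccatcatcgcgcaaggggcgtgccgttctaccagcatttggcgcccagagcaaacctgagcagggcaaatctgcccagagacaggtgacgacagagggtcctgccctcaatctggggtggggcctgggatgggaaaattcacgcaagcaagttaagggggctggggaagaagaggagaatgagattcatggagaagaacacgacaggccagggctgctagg
Irgm1 held 2 overlapping matches to the first motif, Irgm2 held 1 match to each motif, Psmb8 held 1 match to the second, and Tap1 held none in this window. Of 32851 promoters of 300 bases in the table, 3.44% held the first motif and 8.30% the second. Of the 10 list genes whose DSS libraries both lay above the controls, 7 were in the table, 5 with the first motif and 4 with the second. Igtp and Gbp7 are in both counts and Gbp2 in the first, and none of these genes held in all 3 definitions. Of the other 15 list genes, 13 were in the table, 4 with the first motif and 2 with the second. A gene with several promoters was counted if any of them held a match, while the shares over the table count each promoter. A match is a description of the letters and not a bound site.

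Of 28 tested genes of inflammatory cytokines and NF-kB targets, 7 lay above both controls and 1 below, against 10.5% and 13.4% of all genes. Their median log2 fold change was 0.61, and 0 passed edgeR's adjusted threshold. Without mixed members 8 lay above and 1 below, against 12.3% and 15.7% of all genes. Vcam1, an adhesion molecule for leukocytes, stood at 25.9 and 40.8 CPM in control and 86.7 and 186 CPM in DSS libraries (log2 2.07, SE 0.48, edgeR adjusted p = 0.999). Ptgs2, the inducible cyclooxygenase, stood at 15.5, 67.9, 87.7 and 292 CPM, and Tnfaip3, a feedback inhibitor of NF-kB, at 20.7, 36.2, 53.7 and 190 CPM. In these 3 genes DSS 2 was highest and control 1 lowest. When the Has1, Tnfaip6 and Ptx3 limit was dropped, 0 of the 28 genes lay above both controls, against 7.75% of all genes. Vcam1 then stood at 130 CPM in control 2 and 90.0 CPM in DSS 1. The 5 inflammatory chemokines that were tested had a median log2 fold change of 1.62, with 1 at an unadjusted p under 0.05, and the groups overlapped for each of the 5. Ccl2, a chemokine for monocytes, stood at 12.9, 63.4, 36.1 and 347 CPM, and Cxcl1, a chemokine for neutrophils, at 54.4, 199, 94.9 and 663 CPM, with control 2 above DSS 1 in both.

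Mt2, a metallothionein that binds zinc, stood at 98.4, 249, 524 and 1123 CPM (log2 2.30, SE 0.56, edgeR adjusted p = 0.999). Without the limit it stood at 98.0, 1566, 751 and 2990 CPM, and control 2 was then above DSS 1. Mt2 was also at 130 to 346 CPM in epithelial cells. Of 17 tested genes of metallothioneins and stress, 5 lay above both controls and 1 below, against 10.5% and 13.4% of all genes. Their median log2 was 0.37, with 0 past edgeR's adjusted threshold. When the limit was dropped 1 lay above, against 7.75% of all genes. Of 29 immediate early genes, which also respond to dissociation of tissue, 8 lay above and 0 below (median log2 0.66, 0 past the adjusted threshold), and 4 above when the limit was dropped. Without mixed members 10 lay above and 0 below, against 12.3% and 15.7% of all genes. Fos, a transcription factor subunit, stood at 1563, 3981, 4758 and 4122 CPM, and control 2 lay just under DSS 2. Egr1, a zinc finger transcription factor, stood at 1649, 4719, 4231 and 5399 CPM, and the groups overlapped. Control 1 was the lowest library for both genes, and the part of dissociation in the other values was not tested. Of 10 tested type I interferon genes 4 lay above both controls and 0 below (median log2 0.71, 0 past the adjusted threshold), and 3 above and 1 below without mixed members.

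**Figure D5:**
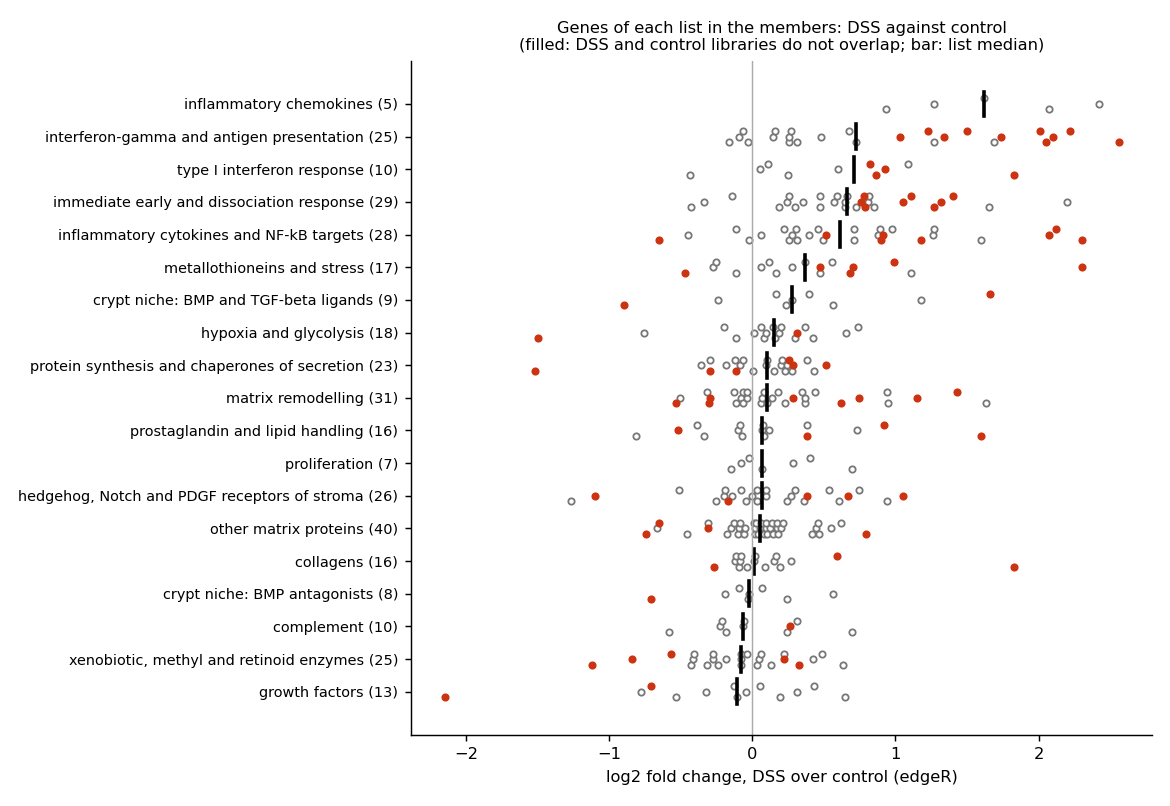
log2 fold change of DSS over control in the members (edgeR) for each tested gene of the lists with at least 5 tested genes, with the number tested in brackets. Filled points are genes whose DSS and control libraries do not overlap, open points the others, and bars are list medians. The chemokine, interferon, immediate early and NF-kB lists have the highest medians, and the BMP antagonist, collagen and complement lists lie near 0.

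Serpina3n, a serine protease inhibitor, stood at 93.2, 145, 239 and 382 CPM (log2 1.44, SE 0.40, edgeR adjusted p = 0.999) and was at most 7.78 CPM in epithelial cells. More of it was held by the other gated fibroblasts in each library (265, 303, 294 and 413 CPM), and there the groups overlapped. Phlda1 stood at 135, 195, 411 and 438 CPM. Cxcl13, the chemokine that draws B cells, had 2, 0, 36 and 16 UMIs in the 4 libraries and came from 20 members in all, and the other gated fibroblasts held more of it in each library (119, 28.3, 104 and 75.9 CPM against 5.18, 0, 37.2 and 35.4 CPM). Srgn, a proteoglycan of blood cells, had 2, 0, 45 and 11 UMIs and stood at 492 to 952 CPM in cells with a Ptprc UMI. Iglc2, an immunoglobulin constant region, stood at 2.59, 4.53, 4210 and 75.1 CPM, and 1 cell of DSS 1 held 3401 of its 4115 UMIs. Without mixed members its log2 fold change was 6.86 (edgeR adjusted p = 0.404), from 9.35 with them. Epithelial cells held 5.88, 52.4, 6016 and 561 CPM of it, and the part of RNA from other cells in the members' value was not tested.

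The 2 lower genes of smallest p were Spink4 and Agr2. Spink4, a secreted protease inhibitor of goblet cells, stood at 295 and 720 CPM in control and 48.5 and 59.7 CPM in DSS libraries (log2 -3.16, SE 0.50, edgeR adjusted p = 0.676). Agr2, a disulfide isomerase needed for mucin folding, stood at 111, 304, 19.6 and 22.1 CPM (log2 -3.20, SE 0.53, edgeR adjusted p = 0.676). DESeq2 called both (adjusted p = 2.67e-05 and 0.0017). The groups did not overlap for either. Spink4 was also lower in both DSS libraries in other cells, and stood at 246, 331, 25.4 and 36.1 CPM in the other fibroblasts, at 6408, 3259, 2375 and 1221 CPM in epithelial cells and at 2090, 2488, 420 and 540 CPM in cells with a Ptprc UMI. Agr2 stood at 114, 109, 18.6 and 31.35 CPM in the other fibroblasts and at 1354, 1081, 354 and 601 CPM in cells with a Ptprc UMI. In both of these, both DSS libraries were below both controls. In epithelial cells Agr2 stood at 4295, 1599, 2121 and 1497 CPM, where the groups overlapped. The part of free RNA from goblet cells in the members' values was not tested. Spink4 and Agr2 fell in the Adamdec1 gate (edgeR adjusted p = 0.013 and 0.0359), and Spink4 fell in the Kcnn3 and Fibin gate (edgeR adjusted p = 0.0388). In the Pi16 gate Spink4 had a log2 fold change of -3.42 (edgeR adjusted p = 0.107). Agr2 had -2.32 in the Pi16 gate and -2.21 in the Kcnn3 and Fibin gate, and passed in neither. Oit1 and Retnlb, also epithelial, stood at 72.5 and 113 CPM against 19.6 and 35.4 CPM, and at 106 and 113 CPM against 37.1 and 11.1 CPM.

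Other genes also stood lower in both DSS libraries. Angptl1, a secreted angiopoietin-like protein, stood at 56.9 and 131 CPM in control and 18.6 and 19.9 CPM in DSS libraries (log2 -2.15, SE 0.49, edgeR adjusted p = 0.999), and at 0.377 to 1.03 CPM in epithelial cells. Ptch1, the hedgehog receptor and itself a hedgehog target, stood at 137 and 136 CPM against 55.7 and 68.5 CPM (log2 -1.10, SE 0.35, edgeR adjusted p = 0.999). Its log2 fold change was -1.46, -0.94 and -1.11 in the Pi16, Adamdec1 and Kcnn3 and Fibin gates, where it did not pass the test either. Gdf10 stood at 246 and 471 CPM in control and 153 and 217 CPM in DSS libraries, and Igf1, an insulin-like growth factor, at 443 and 593 CPM against 299 and 307 CPM. In all 4 genes both DSS libraries lay below both controls. Tm4sf1 (log2 -1.38), Fam214b (-2.06), Zfyve26 (-1.92) and Frs2 (-1.21) completed the 10 lower genes of smallest p that met the naming rule, all with an edgeR adjusted p of 0.999.

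For niche and matrix genes no difference between the groups passed the test. Grem1 had a log2 fold change of -0.03 (SE 0.41) and Rspo3 of 0.02 (SE 0.40), with an edgeR adjusted p of 0.999 for both. Of 8 tested BMP antagonists 0 lay above both controls and 1 below (Fstl3, 64.7 and 45.3 CPM against 36.1 and 28.7 CPM), with a median of -0.03. Of 3 tested R-spondin and Wnt ligand genes, 0 lay on one side. Of 9 BMP and TGF-beta ligands 1 lay above and 1 below. Of 16 collagens 2 lay above and 1 below, with a median of 0.01, and Col1a1, the main chain of type I collagen, stood at 1719, 3198, 3060 and 2082 CPM. Col4a5, 1 of the 2 above, stood at 10.4, 13.6, 39.2 and 42 CPM (log2 1.83, edgeR adjusted p = 0.999). Of 40 other matrix proteins 1 lay above and 3 below. Of 31 matrix remodelling genes 5 lay above and 3 below, and 8 and 4 without mixed members (all genes, 12.3% and 15.7%). With the Has1, Tnfaip6 and Ptx3 limit dropped 9 lay above and 5 below (all genes, 7.75% and 14.4%). Of 10 complement genes 1 lay above and 0 below, with a median of -0.06. Of 25 xenobiotic, methyl and retinoid enzymes 2 lay above and 3 below, with a median of -0.08, and Inmt, at 608 and 765 CPM against 363 and 535 CPM, was among the 3 (log2 -0.57, edgeR adjusted p = 0.999). Without the Has1, Tnfaip6 and Ptx3 limit 10 of these 25 enzymes lay below both controls, against 14.4% of all genes. Without mixed members 6 of the 25 did, against 15.7% of all genes. None of the lists named here had a gene past edgeR's adjusted threshold. A difference too small for 2 libraries per group, or for genes with few UMIs, would not have been detectable at this depth.

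Whether the members' difference between DSS and control was unlike that of other fibroblasts was tested as an interaction of gate and DSS in edgeR. Called genes numbered 0 of 5575 against the Pi16 gate, 0 of 8157 against the Adamdec1 gate and 0 of 7353 against the Kcnn3 and Fibin gate (0% each), with 120, 506 and 184 at an unadjusted p under 0.05. The smallest adjusted p was 0.114, for Wnt5a against the Adamdec1 gate. Wnt5a, a non-canonical Wnt ligand, stood at 142, 67.9, 79.5 and 72.9 CPM in the members and at 228, 148, 826 and 836 CPM in the Adamdec1 gate, with an interaction log2 of -2.60 (SE 0.33). Cxcl13 had an interaction log2 of 4.33 (edgeR adjusted p = 0.149) and Serpina3n of 1.87 (adjusted p = 0.389) against the same gate. For Spink4 no difference between gates was detected (interaction log2 0.37, 0.53 and 0.30, edgeR adjusted p = 1, 0.884 and 1), and that in Ptch1 had interactions of 0.38, -0.12 and -0.02 (adjusted p = 1, 0.971 and 1). Mt2 rose in the Adamdec1 gate (log2 2.44, edgeR adjusted p = 0.0402), and its interaction there was -0.11 (adjusted p = 0.989).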

How the data were processed

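The authors deposited whole-number UMI counts per gene and barcode for 2 control and 2 DSS libraries, in 12 files, made with Cell Ranger 6.1.1 on GRCm38, per the submitters' processing notes. Of other settings, the sources used here give none. In the labels the kit version differs between capture and library construction, which was not resolved. All 55450 gene identifiers matched GENCODE M21.

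Libraries held 101051573 to 109472082 UMIs over 49851 barcodes. Members and gates were taken by the rule given above, and the members and gene lists were chosen with earlier results of these data known. Since no gene passed, the text names the 10 per direction of smallest p with at least 20 CPM in the higher group and groups that do not overlap. The limits for mixed members were set after seeing the data. Doublets were predicted with Scrublet (scanpy 1.11.5, 0.8% expected per 1000 cells) and kept. UMIs were summed per library and gate, since cells are not replicates, and tested with edgeR 4.0.16 in R 4.3.3 (TMM, filterByExpr, two-sided quasi-likelihood F test, Benjamini-Hochberg over all genes tested, threshold 0.05), with DESeq2 1.42.0 beside it, and edgeR was first tested on simulated data. Ratios between gates used a pseudocount of 1 CPM. Promoters came from RefSeq (GRCm38.p6). The labels' replicate numbers are not stated to pair libraries.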

Additional observations from a re-analysis of the deposited data

How the results depend on the processing

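In the members, edgeR called 0 genes higher and 0 lower in DSS. RLE scaling, leaving out predicted doublets, a marker minimum of 3 UMIs, a mitochondrial limit of 10%, dropping the Has1, Tnfaip6 and Ptx3 limit, and leaving out the mixed members with or without that limit (both added after seeing the data) also gave 0 and 0. DESeq2 gave 0 higher and 2 lower, no filter on low counts 20 and 8, and thinning to 3000 UMIs 0 and 1. With the labels' numbers as a replicate block the counts were 6 (Ptgs2, Vcam1, Mt2, Ccl2, Iglc2 and Iigp1) and 2 (Spink4 and Agr2), 7 and 2 with that block and the limit dropped, and 2 and 2 with the block and without mixed members, the latter 2 added after seeing the data. Libraries of the same number deviated together (correlation 0.45 over 6143 genes), but with 2 pairs this is forced to be symmetric and does not show that the numbers pair them. Leaving out 1 library gave 0 to 9 higher and 0 to 14 lower, with 9 and 14 without DSS 1, 5 and 0 without DSS 2, and 0 and 2 without control 1. Interactions without a filter numbered 5 (Pi16 gate), 55 (Adamdec1 gate) and 8 (Kcnn3 and Fibin gate). They ran from 0 to 40, 7 to 23 and 0 to 52 on leaving out 1 library, with 40 without control 1 and 22 without control 2 against the Pi16 gate, 7, 16, 23 and 11 without control 1, control 2, DSS 1 and DSS 2 against the Adamdec1 gate and 52 without control 2 against the Kcnn3 and Fibin gate. The genes called lower without DSS 1 included the smooth muscle genes Actg2, Cnn1 and Tagln and the haemoglobin genes Hbb-bs and Hba-a1. Cnn1, Des and Tagln were among the interactions without control 2 against the Kcnn3 and Fibin gate. Of the 29 mixed members, 9, 1, 18 and 1 lay in the 4 libraries. Their part in these differences, and the cause of the differences, was not tested. With 1 library left in a group, it is assumed to vary like the others. The share of gated fibroblasts differed by 2.02 percentage points and by -1.47 to 5.50 on leaving out 1 library, with -1.47 without DSS 1. The share of filtered cells differed by 1.09 points, by 0.437 to 1.73 on leaving out 1 library and by 3.58 without the Has1, Tnfaip6 and Ptx3 limit. Over 17 alternatives, no direction changed among the 20 named genes wherever they were tested. They were named because both DSS libraries lay on one side of both controls, so leaving out 1 library could hardly reverse them. Sizes did change. Fam214b went from a log2 fold change of -2.06 to -0.0044 with the Has1, Tnfaip6 and Ptx3 limit dropped and without mixed members. Tm4sf1 went from -1.38 to -0.018 after thinning to 3000 UMIs. Few UMIs per gene and few members, 71 in control 2, limit the precision.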
